A study of Arabidopsis thaliana with 6 samples.

Results

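The sugar carrier genes TMT1 (AT1G20840), TMT3 (AT3G51490) and AtVEX1 (AT5G62850), were followed in mature pollen of Arabidopsis thaliana. They are the 3 genes chosen by name, out of 13350 genes that had a probe set of their own, and each was measured by 1 probe set that lists no other gene. The samples were total RNA of mature pollen on 6 ATH1 arrays of Affymetrix, with 3 groups of 2 arrays in the Col-0 background. The groups were unmodified Col-0 plants (wild type), the insertion line SAIL_1168_C11, titled TF1, and the insertion line SALK_018864, titled TF2, all from compost-grown plants kept at 21 °C and 75% humidity. Each mutant group is a single insertion line. SALK_018864 is known outside the labels as carrying an insertion in BZIP34, which encodes a bZIP factor expressed in pollen; for SAIL_1168_C11 the gene hit, and for both lines the zygosity, were not given. Nothing in the labels says that replicates came from separate plants or pollen harvests, so p-values rest on the spread of these samples alone, and that spread may be technical.

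TMT proteins are carriers of the vacuole membrane that exchange cytosolic hexoses for protons of the vacuole, so they load sugar into the vacuole at the cost of the proton gradient. TMT1 is the family member best known from leaves, where it is induced by cold and sugar, and TMT2 and TMT3 are its close relatives. AtVEX1 takes its name from expression in the vegetative cell, the pollen cell that grows the tube, and RefSeq lists it also as SWEET5. SWEET proteins are small uniporters that let sugars cross a membrane down their gradient, and they are unrelated in structure to TMT carriers, which belong to the major facilitator superfamily. The 3 genes are therefore grouped here as sugar carriers and not as a single protein family. A growing pollen tube takes up sugar from the pistil and stores or burns it, which is why such carriers are studied in pollen.

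All 3 genes read well above the middle of the array on every one of the 6 arrays. Of all non-control probe sets on the same array, 92.0% to 96.7% read lower than TMT1, 79.6% to 86.6% lower than TMT3 and 92.0% to 95.7% lower than AtVEX1. The median signal per array was 33.6 to 42.96. Signals are linear array intensities, and brightness does not compare transcript amounts between different probe sets. These ranks, and the sums over marker genes below, thus describe signal only. Changes between groups were tested for each gene by itself.

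The labelled tissue was checked against marker genes. The vegetative cell genes with a probe set of their own were ANX1 and ANX2, receptor kinases that keep the tube from bursting, and ACT12, a pollen actin. Wild-type arrays gave sums of 6257 and 6382, TF1 arrays 11715 and 10051, and TF2 arrays 11986 and 10664. The 3 sperm genes summed to 647 to 773 in wild type, 1391 to 1426 in TF1 and 1281 to 1469 in TF2. Most of these sums came from MGH3, with means of 577, 1184 and 1160. MGH3 was called higher in both lines, whereas TET11 and TET12 were not called in either. The 10 leaf and photosynthesis genes, which mark green tissue, summed to 6028 to 6339 in wild type, 633 to 703 in TF1 and 590 to 723 in TF2; 9 of 10 were called lower in either line, and none of the 10 was listed at 0. The 3′ control probe sets of actin and GAPDH also read lower in the lines, with 573 to 794 in wild type, 157 to 238 in TF1 and 84.6 to 140 in TF2. Their signals thus fell in the same order of groups, without overlap, in which those of TMT1 rose. Of the matching 5′ control sets, 1 for actin went the other way, with wild-type signals of 104 and 84.8, TF1 signals of 102 and 172, and TF2 signals of 229 and 349. On the log2 scale that actin pair had 3′ over 5′ ratios of 2.58 and 2.91 for wild type, 0.63 and 0.15 for TF1, and −1.29 and −2.04 for TF2. For the other 3 pairs, 1 of actin and 2 of GAPDH, the ratio lay between −0.21 and 2.40; TF1 overlapped with TF2 in 1 pair of each gene, and in the other GAPDH pair TF1 (0.34 and 0.70) lay above TF2 (0.05 and 0.28) with wild type on both sides (−0.21 and 0.85). The part of these shifts, which separate wild type from both lines and in the controls also TF1 from TF2, in the changes of the carrier genes was not tested.

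**Figure D1:**
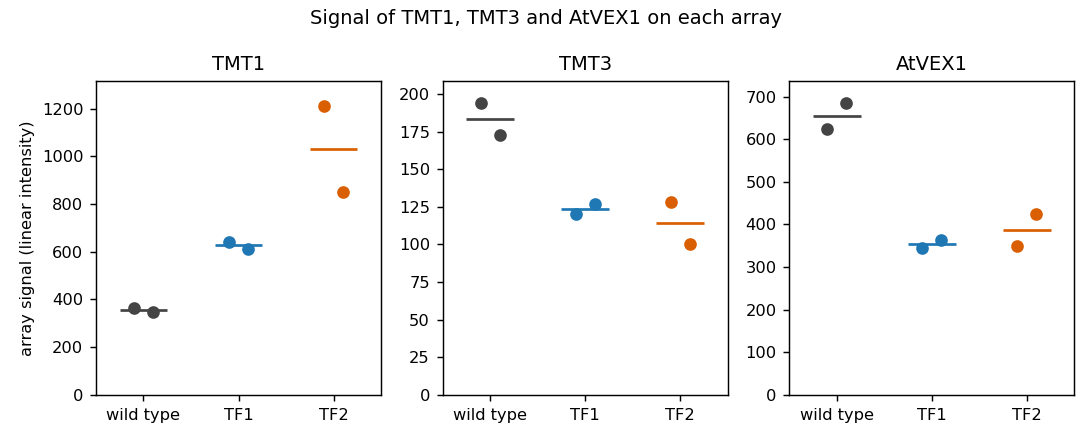
Signal of TMT1, TMT3 and AtVEX1 on each of the 6 arrays, in linear array intensity with each axis starting at 0; points are arrays and bars are group means. TMT1 steps up from wild type (364 and 346) through TF1 to TF2 (1209.6 and 851) without overlap, whereas AtVEX1 and TMT3 read highest on the wild-type arrays.

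TMT1 was higher in both lines than in wild type. The wild-type arrays gave signals of 364 and 346, the TF1 arrays 642 and 612, and the TF2 arrays 1209.6 and 851. No 2 groups overlapped: wild type was lowest, TF1 intermediate and TF2 highest. A stepwise order of this kind, with no overlap between any of the groups, was found for 7.92% of the 11373 probe sets tested. Means were 355 ± 12.5 (SD, n = 2) in wild type, 627 ± 21.7 in TF1 and 1030.2 ± 254 in TF2. The TF2 arrays lay farther apart than the others, by 0.50 on the log2 scale, where the median gap of all tested probe sets in TF2 was 0.38; the gap of TMT1 was 0.07 in wild type and also 0.07 in TF1.

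Changes were tested on log2(signal + 10.3) with limma, fitted across all 11373 probe sets that passed a filter on dim signal, with Benjamini-Hochberg adjustment over all of them and a threshold of 0.05. All 3 genes passed the filter. TMT1 rose by 0.80 in TF1 (SE 0.18, 95% interval 0.42 to 1.19, limma adjusted p = 0.00583), a ratio of means of 1.77. In TF2 it rose by 1.49 (SE 0.18, interval 1.11 to 1.87, limma adjusted p = 4.92e-05), a ratio of 2.90. Over all tested probe sets 11.9% were called higher in TF1, and 14.8% in TF2. A change at least as high as that of TMT1 was seen for 12.6% of tested probe sets in TF1, but for 2.62% in TF2. Both comparisons share the wild-type arrays. In bulk pollen, a change in the share of cells that carry a transcript and a change in transcript per cell cannot be told apart. The call in TF1 was lost without the intensity trend of the model (adjusted p = 0.123), without wild type replicate 2 (0.0570) and without TF1 replicate 1 (0.0556); the call in TF2 was made under each of the 13 alternatives run.

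Between the lines, TMT1 was 0.69 higher in TF2 than in TF1 (SE 0.18, interval 0.30 to 1.07, limma adjusted p = 0.0477), where 0.853% of probe sets were called higher. This call lay at the threshold. It was lost under 11 of 13 alternatives, with adjusted p-values up to 0.298, and without TF2 replicate 1, the array with the highest TMT1 signal, the difference was 0.43 (adjusted p = 0.228). TF2 was the higher line under all 13. None of the 10 leaf genes and none of the 3 vegetative cell genes was called between the lines. Their median changes there were −0.36 and 0.11. Over all tested probe sets only 0.853% were called higher and 3.8% lower, so an absence of calls among so few genes says little. The 3′ actin and GAPDH controls, however, read 157 to 238 in TF1 and 84.6 to 140 in TF2, and 1 actin 5′ set read higher in TF2, so these controls separate the same arrays as TMT1 does; their part in its difference was not tested.

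AtVEX1 was lower in both lines. Wild-type arrays gave signals of 623 and 684, TF1 arrays 345 and 362, and TF2 arrays 349 and 424. Each array of the lines read below both wild-type arrays, an order found for 23.4% of tested probe sets, while TF1 and TF2 overlapped. Group means were 653 ± 43.6 in wild type, 354 ± 12.01 in TF1 and 386 ± 53.0 in TF2 (SD, n = 2 each). AtVEX1 fell by 0.86 in TF1 (SE 0.17, 95% interval −1.23 to −0.50, limma adjusted p = 0.00269) and by 0.75 in TF2 (SE 0.17, interval −1.11 to −0.38, limma adjusted p = 0.00462). The ratios of means were 0.542 and 0.591. Over all tested probe sets, 9.64% were called lower in TF1 and 16% in TF2, and a change at least as low as that of AtVEX1 was seen for 18.4% in TF1 and 26.0% in TF2. The lines did not differ detectably: TF2 minus TF1 was 0.12, with an interval of −0.25 to 0.48 (limma adjusted p = 0.770). Without the intensity trend both calls against wild type were lost (adjusted p = 0.0889 in TF1 and 0.0771 in TF2), and without wild type replicate 2 that in TF2 was lost (0.0633).

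For TMT3, wild-type arrays gave signals of 194 and 173, TF1 arrays 120.4 and 127, and TF2 arrays 128 and 100.5. Its wild-type arrays were again above all 4 arrays of the lines, an order found for 23.4% of tested probe sets. The lines overlapped with each other. Group means were 183 ± 15.2, 124 ± 4.48 and 114 ± 19.7 (SD, n = 2 each). The difference from wild type did not pass the threshold in either line. It was −0.53 in TF1 (SE 0.27, interval −1.11 to 0.05, limma adjusted p = 0.197) and −0.64 in TF2 (SE 0.27, interval −1.22 to −0.06, limma adjusted p = 0.0909). The unadjusted p was 0.0332 in TF2 and 0.0698 in TF1. A change at least as low as that of TMT3 was seen for 29.1% of tested probe sets in TF1 and 28.6% in TF2. TF2 minus TF1 was −0.11, with an interval of −0.69 to 0.47 (adjusted p = 0.875). None of the 13 alternatives brought TMT3 past the threshold in any comparison, with adjusted p-values from 0.0680 upward against wild type.

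**Figure D2:**
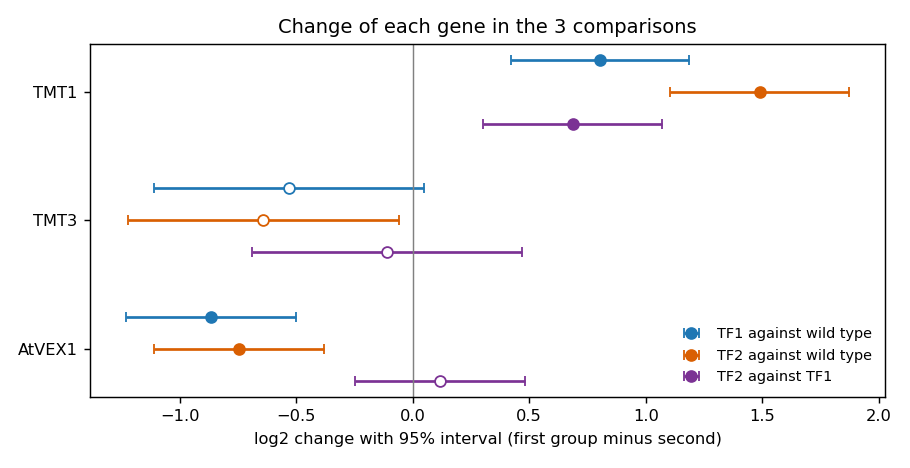
Log2 change of TMT1, TMT3 and AtVEX1 in the 3 comparisons, with 95% intervals from limma; filled points passed an adjusted p of 0.05 and open points did not. TMT1 lies to the right of 0 in all 3 comparisons, up to 1.49 in TF2 against wild type, and the AtVEX1 intervals against wild type lie to the left of 0.

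TMT2, the remaining gene of the TMT family, did not pass the filter. Its wild-type signals were 35.4 and 24.9, its TF1 signals 8.44 and 16.0, and its TF2 signals 6.42 and 9.01. Wild type thus lay below the median of its arrays, and 3 of the 4 arrays of the lines read below the pseudocount of 10.3. Fitted without the filter, the changes were −0.85 in TF1 (limma adjusted p = 0.488) and −1.16 in TF2 (0.261). Of the 3 TMT genes, TMT1 alone was called in these fits.

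The changes were also read as ratios within an array, which a single scaling factor per array leaves as they are, but which quantile normalization can change. They show only whether 2 genes changed unequally, and each is given relative to its mean in wild type. The log2 ratio of TMT1 to TMT3 was −0.05 and 0.05 for wild type, 1.46 and 1.32 for TF1, and 2.28 and 2.13 for TF2. The 3 groups did not overlap on this measure, and the TF2 arrays lay closer together than they did for TMT1 alone. That of TMT1 to AtVEX1 was 0.10 and −0.10 for wild type, 1.78 and 1.64 for TF1, and 2.67 and 1.88 for TF2. Here too the groups stood apart, although the TF2 arrays were spread widely. The ratio of AtVEX1 to TMT3 was −0.15 and 0.15 for wild type, −0.31 and −0.32 for TF1, and −0.39 and 0.24 for TF2, so the wild-type and TF2 arrays overlapped. These ratios are of signals without the pseudocount, whereas ratios after quantile normalization are of values that include it, so the 2 differ in both respects. After quantile normalization, tried after the data were seen, the ratio of AtVEX1 to TMT3 was −0.18 and 0.18 for wild type. It was −0.79 and −0.68 for TF1, and −0.79 and −0.08 for TF2. Means of TMT1 to TMT3 were then 1.10 in TF1 and 1.82 in TF2, and those of TMT1 to AtVEX1 1.83 and 2.25. With 2 arrays against 2, an exact two-sided permutation test cannot give a p below 0.333, and none was run on these ratios.

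Set against the mean of the vegetative cell genes ANX1, ANX2 and ACT12 on the same array, a yardstick chosen after the values were seen, TMT1 in TF1 stayed near its wild-type ratio. Relative to wild type this log2 ratio was 0.05 and 0.09 for TF1 and 0.93 and 0.58 for TF2, against −0.01 and 0.01 for wild type. In TF1 the change of TMT1 (0.80) was close in size to those of ANX2 (0.82), ACT12 (0.72) and ANX1 (0.70), whereas in TF2 it was 1.49 against 0.93, 0.54 and 0.81. The same ratio was −1.72 and −1.54 for AtVEX1 in TF1 and −1.75 and −1.30 in TF2. For TMT3 it was −1.41 and −1.22 in TF1 and −1.36 and −1.55 in TF2. After quantile normalization, tried on these ratios after the data were seen, TMT1 left its wild-type ratio in TF1 too, with 0.69 and 0.78, and reached 1.61 and 1.27 in TF2. The group means then were −1.10 and −0.81 for AtVEX1 and −0.36 and −0.38 for TMT3, lower than wild type as before but by less. Quantile normalization took the 3 vegetative cell genes to between −0.02 and 0.22 in the lines, with none called. ANX2 turned to −0.02 in TF2. Under quantile normalization TMT1 and AtVEX1 kept their direction and their calls against wild type. After median centring the 3 vegetative cell genes were still called higher in both lines, so their calls differed between these rescalings. None of the 3 was called without the trend.

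**Figure D3:**
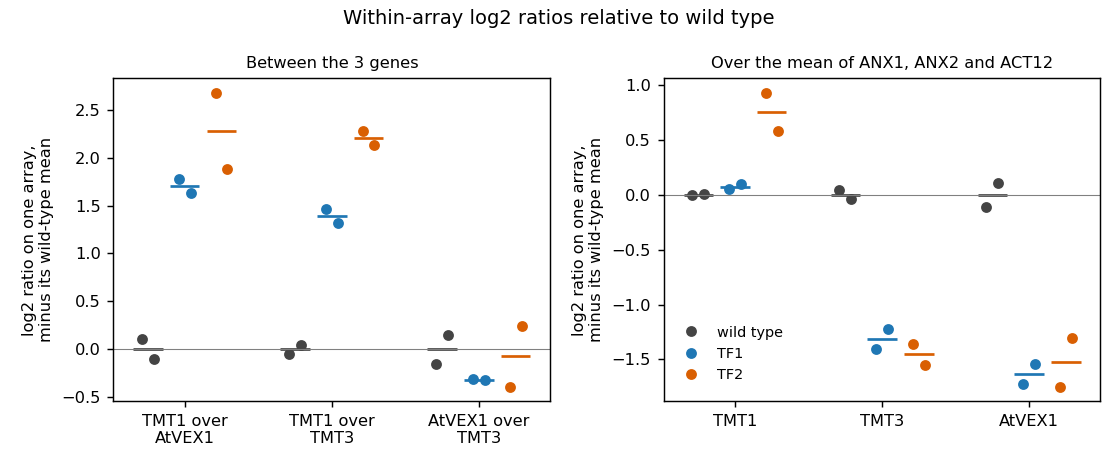
Log2 ratios of signals on the same array, minus the mean of the same ratio in wild type; points are arrays and bars group means. Left, ratios between the 3 carrier genes; TMT1 over TMT3 forms 3 separate steps, up to 2.28. Right, each gene over the mean of ANX1, ANX2 and ACT12; TMT1 in TF1 (0.05 and 0.09) lies beside wild type and TMT1 in TF2 above it; after quantile normalization, not plotted, TMT1 in TF1 was at 0.69 and 0.78.

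In the annotation used, few other carriers of the major facilitator superfamily had a probe set of their own. Of 33 such genes matched by name, 5 had one, and 4 passed the filter. In TF1 and in TF2 alike, 1 of the 4 rose (TMT1) and 1 fell (SFP1), and 2 were not called, too few genes to set apart from the 11.9% higher and 9.64% lower of all tested probe sets in TF1 or the 14.8% and 16% in TF2. SFP1, of the ERD6-like group of sugar carriers, had wild-type signals of 152 and 189.9, TF1 signals of 57.9 and 67.2, and TF2 signals of 79.9 and 50.6. It fell by 1.31 in TF1 (limma adjusted p = 0.0190) and by 1.28 in TF2 (0.0155). The TF1 call was lost without the trend, after quantile normalization and without any single wild-type or TF1 array (adjusted p up to 0.207). That in TF2 was lost without either wild-type array or without TF2 replicate 2 (up to 0.161). SFP2, which lies next to SFP1 in the gene order of TAIR10.1 and was looked at for that reason after the values were seen, was not called, with −0.23 and 0.20 (limma adjusted p = 0.685 and 0.684). Cross-hybridisation between such related neighbours was not tested. The median change of the 4 kept carriers was −0.38 in TF1 and −0.22 in TF2, beside −0.02 and 0.05 over all tested probe sets.

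Among SWEET genes 16 of 17 had a probe set of their own and 10 passed the filter. In TF1 none rose and 2 fell, AtVEX1 and SWEET8, also known as RPG1, a gene needed for the patterning of the pollen wall. In TF2 1 rose and the same 2 fell. Over all tested probe sets 11.9% were called higher and 9.64% lower in TF1, and 14.8% and 16% in TF2, so with 10 genes these counts are not set apart from the background. SWEET8 signals of 672 and 589 for wild type compared with 289 and 297 for TF1 and 134 and 102 for TF2 (log2 change −1.08 and −2.33, limma adjusted p = 0.00217 and 5.27e-06). Unlike AtVEX1, SWEET8 also differed between the lines, by −1.25 (limma adjusted p = 0.00350), where 3.8% of probe sets were called lower. SWEET1, a glucose uniporter, had wild-type signals of 242 and 247, TF1 signals of 213 and 183, and TF2 signals of 491 and 401. It rose in TF2 by 0.83 (limma adjusted p = 0.00650) and was 1.13 higher there than in TF1 (0.00601), while −0.29 in TF1 was not called (0.346). Both SWEET1 calls were lost without the trend (0.0635 and 0.110), the first also without wild type replicate 1 (0.0520) or TF2 replicate 1 (0.0515), and the second without TF1 replicate 2 (0.0646). Without the trend SWEET8 lost its calls in TF1 (0.0720) and between the lines (0.0932). SWEET1 and TMT1 were the carriers of both lists called higher in TF2 than in TF1, where 0.853% of all tested probe sets were. The TMT1 call lay at the threshold, as given above. The median change of the 10 kept SWEET genes was −0.52 in TF1 and 0.23 in TF2.

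Proton pumping by the V-ATPase supplies the gradient that TMT carriers use, and 5 of its subunit genes were measured and kept. In TF1 1 rose and none fell, and in TF2 2 rose and 1 fell, beside a background of 11.9% higher and 9.64% lower calls in TF1 and of 14.8% and 16% in TF2; counts among 5 genes say little against it. VHA-A3, for a membrane subunit of the vacuolar enzyme, rose in both lines, as TMT1 did, with signals of 732 and 785 for wild type, 1502 and 1346 for TF1, and 1512 and 1531 for TF2 (log2 change 0.90 and 0.99, limma adjusted p = 0.000387 and 9.12e-05). It differed little between the lines, by 0.10 (interval −0.18 to 0.38, adjusted p = 0.750), and its TF1 call was lost without the trend (0.0790). AT4G02620, listed also as VHA-F, was 0.68 higher in TF2 (limma adjusted p = 0.00126), a call lost after quantile normalization (0.158) and without the trend (0.0823). AT3G58730, listed as VHA-D, fell by 1.38 in TF2 (0.000496), from 309 and 351 to 104 and 138, and was 0.94 lower there than in TF1 (0.0339), which was lost under 9 of 13 alternatives (up to 0.171), the removal of any single wild-type or TF1 array or of TF2 replicate 1 among them. The other 2 subunit genes, VHA-A1 and VHA-A2, were not called. Calls in TF2 went both ways, and the median change of the 5 was 0.22 in TF1 and 0.10 in TF2.

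Genes that use or store the carried sugars were thinly covered. The invertase list had 1 kept gene of 23, cwINV6 for a cell wall invertase, at −0.32 in TF1 and 0.13 in TF2, and the hexose phosphorylation list 1 of 32, at −0.92 and −0.47. That gene, AT1G78050, matched through its symbol PGM, but RefSeq lists it as a phosphoglycerate mutase, an enzyme of a later step of glycolysis, so no kept gene stood for hexose phosphorylation itself. None of these was called (limma adjusted p = 0.439 to 0.883). No gene of the starch list was called, of 5 kept. For sucrose carriers and other tonoplast carriers the annotation named no probe set of their own, so they were not analysed here. It listed no gene for 8730 probe sets, so genes without a named probe set may still be on the array.

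**Figure D4:**
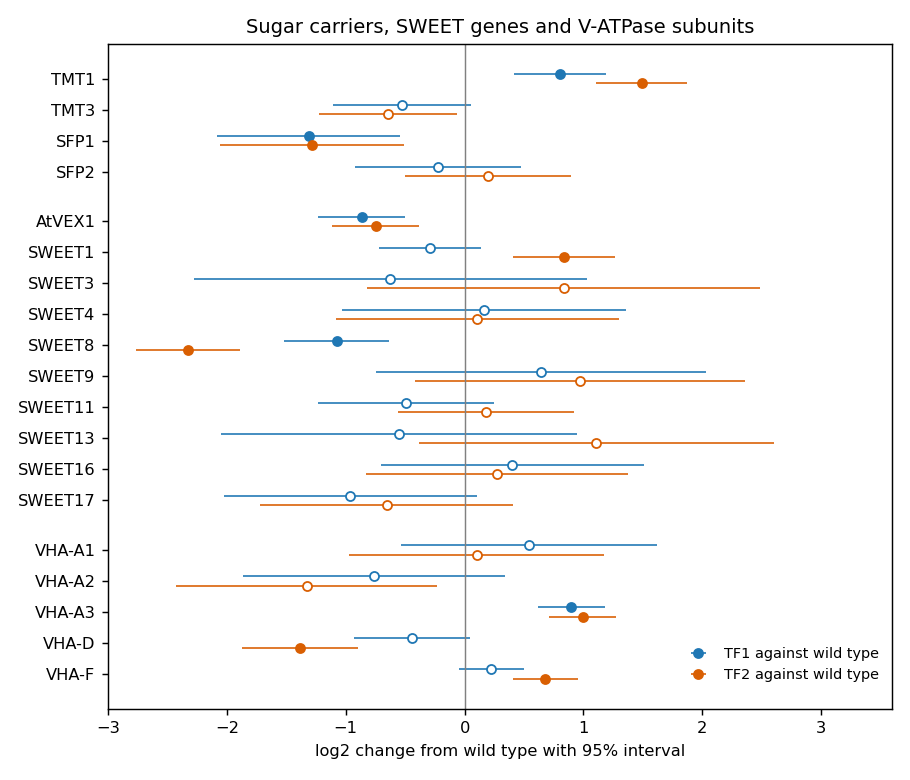
Log2 change from wild type with 95% intervals for the kept TMT and SFP carriers, SWEET genes (AtVEX1 first) and V-ATPase subunits, in TF1 and TF2; filled points passed an adjusted p of 0.05. TMT1 and VHA-A3 were higher in both lines, SFP1, AtVEX1 and SWEET8 lower in both, and SWEET1 higher in TF2.

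The pattern of each gene over the 6 arrays was compared with those of the other kept probe sets with 1 gene whose SD over the arrays was at least 0.5 times its own. TMT1 was most like AT1G77770 (Pearson r = 0.998), AT1G24330 (0.993) and AT5G26010 (0.993). Signals of AT1G77770 were 119 and 112 for wild type, 168 and 159 for TF1, and 254 and 207 for TF2, which put the 6 arrays in the same order as TMT1. AtVEX1 was most like AT3G17800 (0.994), PSBY (0.993), a photosystem II gene, and AT1G48440 (0.992). TMT3 was most like AT3G20510 (0.992), AT5G60670 (0.988) and HPR (0.985), the hydroxypyruvate reductase of photorespiration. PSBY went from 390 and 442 in wild type to between 85.3 and 157 on the 4 arrays of the lines, and HPR from 727 and 690 to between 3.399 and 62.0, both of them larger drops than those of AtVEX1 and TMT3. Over the 6 arrays, 135 of 5061 probe sets reached 0.95 with TMT1, 62 of 5965 with AtVEX1 and 57 of 6161 with TMT3. Among the 3 genes, r was 0.80 between TMT3 and AtVEX1, −0.83 between TMT1 and AtVEX1 and −0.79 between TMT1 and TMT3. These values describe points that share arrays and scaling, and are given with no test.

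**Figure D5:**
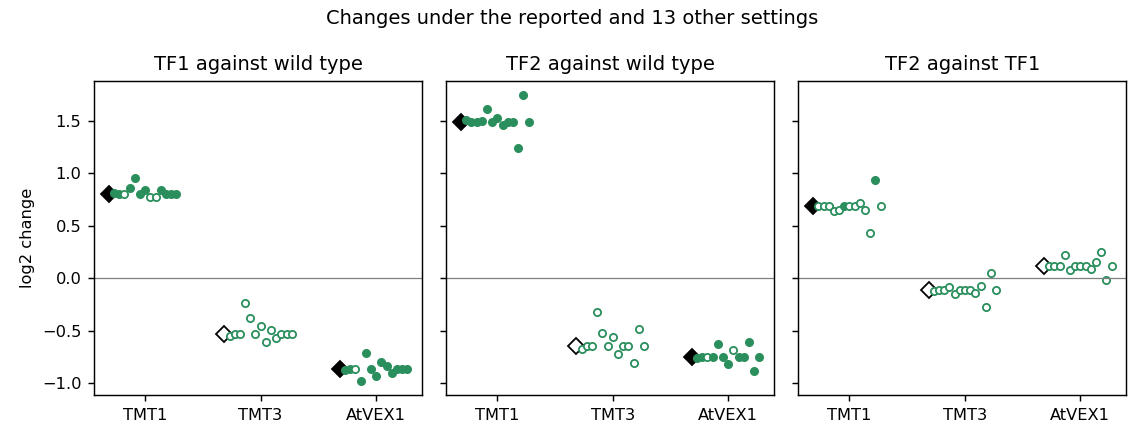
Log2 change of each gene in the 3 comparisons under the reported setting (black diamonds) and 13 other settings (green circles), filled where the adjusted p was under 0.05. No setting turned the sign of a change against wild type, and TMT1 between the lines was filled under the reported setting and 2 others.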

How the data were processed

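Mature pollen RNA was measured on 6 arrays. The authors deposited linear array signals (1 intensity for each probe set on an array); MAS5 and GCOS are listed, per the submitters' processing notes, without version or settings. Trimmed means lay at 100.0, taken as the authors' scaling of the arrays, and no further scaling was applied. No calls of presence come with the values, and precision is limited by the number of arrays. Of 22810 probe sets, 64 controls were left out. Platform annotation gave 13513 probe sets 1 gene, 503 several and 8730 none listed; names were updated through RefSeq's TAIR10.1 gene table (13436 matched). No protein or promoter sequence was used here.

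Signals were taken as log2(signal + 10.3), the 25th percentile being the pseudocount, which understates changes of dim genes. Within-array ratios were taken without the pseudocount, except after quantile normalization, where the values included it. Probe sets at or above the median mean were kept (11373). limma 3.58.1 in R 4.3.3 fitted all arrays together (lmFit, eBayes with trend), two-sided, after a check on simulated data. Lists were matched by symbol or synonym. THO1 and psbT were dropped from the leaf list as wrong matches, and no tapetum gene had an annotated probe set of its own. Genes, lists and tests were chosen with earlier results of these data known. The genes named are the 3 carriers, up to 4 called genes per list, the other TMT genes, and the 3 genes most correlated with each carrier; others are said to be so. Alternatives were another pseudocount, no filter, no trend, quantile normalization, median centring, a replicate block, 4 arrays in place of 6, and leaving out each array.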

Additional observations from a re-analysis of the deposited data

How the results depend on the processing

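Against wild type, TMT1, TMT3 and AtVEX1 kept their sign under all 13 alternatives. Without the intensity trend the counts of called probe sets went from 2453 to 456 in TF1, from 3506 to 2185 in TF2 and from 529 to 175 between the lines, and the calls of TMT1 in TF1 (0.80) and between the lines (0.69) and of AtVEX1 (−0.86 in TF1 and −0.75 in TF2) were lost. TMT1 between the lines was also lost with the smaller pseudocount of 3.87 (0.69), without the filter (0.69), after quantile normalization (0.64), after median centring (0.65) and with only the 4 arrays compared (0.69), a fit in which 274 probe sets were called. Leaving out 1 array at a time gave 1266 to 2817 calls in TF1, 2113 to 3543 in TF2 and 217 to 589 between the lines. It gave 0.77 to 0.84 for TMT1 in TF1 and 0.43 to 0.94 between the lines, and −0.88 to −0.61 for AtVEX1 in TF2. Between the lines, where neither was called, TMT3 ran from −0.27 to 0.05 and AtVEX1 from −0.02 to 0.25. Without TF2 replicate 2 both changed sign, TMT3 to 0.0509 and AtVEX1 to −0.0191. In each such fit the lone array of a group is assumed to vary like the other groups. Apart from the construction of the smaller fits, the cause of the lost calls was not tested.

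Median centring raised the share of higher calls in TF1 from 55.3% to 64.9% and shifted the median over tested probe sets from −0.02 to 0.14 (0.11 after quantile normalization); in TF2 it shifted from 0.05 to 0.16 and 0.14. Deviations of same-numbered replicates were hardly correlated across groups (0.00794, 0.0216 and 0.00204). The labels do not say whether such replicates share a harvest or batch, and these correlations cannot tell. With the replicate number as a block, 2521, 3558 and 593 probe sets were called, and no call of the 3 carrier genes changed. By Spearman in place of Pearson correlation, 103 probe sets tied as most like TMT1, 22 as most like AtVEX1 and 13 as most like TMT3, and 2, 1 and 1 of the genes named by Pearson were among them.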

Other observations

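The starch list held genes with higher TF2 signals that did not pass the threshold. PWD at AT5G26570, for a kinase that phosphorylates starch, had wild-type signals of 41.7 and 39.6, TF1 signals of 6.00 and 54.9, and TF2 signals of 95.3 and 82.3 (0.96 against wild type, limma adjusted p = 0.301). AMY1, an alpha-amylase gene, had wild-type signals of 43.4 and 7.37, TF1 signals of 37.0 and 34.4, and TF2 signals of 47.3 and 70.3 (1.15, adjusted p = 0.229). The median change of the 5 kept starch genes was 0.05 in TF1 and 0.96 in TF2, beside 0.05 over all tested probe sets in TF2. That TF2 median is the value of PWD at AT5G26570 itself. APL3 and SBE2.2, with the highest mean log2 signals of the 5, did not rise in TF2 (−0.13 and −0.06). Both PWD genes and AMY1 were picked out after their values were seen, and their signals are dim.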
